A study of Mus musculus with 6 samples.

Results

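Igf2bp3 and 5 related growth regulators of fetal tissue (Igf2bp1, Igf2bp2, Hmga1, Hmga2 and Lin28b) were followed in mouse macrophages that carried or lacked the scavenger receptor MSR1. Igf2bp3 RNA was higher in all 3 MSR1 KO libraries than in any MSR1 WT library. Its relatives either overlapped between genotypes or, for Igf2bp1 and Lin28b, were close to the limit of detection. The 6 genes were taken by symbol from the 52550 genes of the count table, and 5 of the 6 passed the filter on low counts. Igf2bp3 was chosen because it stood among the strongest differences of this same comparison, and the other members were chosen with these results known. The members' differences are therefore given as descriptions, with errors and intervals but with no p-values.

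RNA-seq was performed on 3 MSR1 KO and 3 MSR1 WT libraries of bone marrow-derived macrophages. Marrow cells of C57BL/6 mice, either MSR1 KO or WT, were grown for 7 days with M-CSF at 25 ng/ml, the growth factor that drives macrophage formation. The macrophages of both genotypes were then kept for 48 h in a Transwell system with BMSCs, the stromal cells of bone marrow, so every library came from co-cultured cells and none from macrophages alone. The comparison asked how the loss of MSR1 changed the macrophage transcriptome under co-culture. The study describes 3 biological replicates of each genotype. Neither the study nor the labels say whether these came from separate mice or separate cultures, so the source of the spread between libraries is not known.

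Library totals ranged from 36143518 to 47417448 counts. The targeted gene, Msr1, gave 2118, 1825 and 2000 counts in the KO libraries and 7543, 9163 and 9219 in the WT libraries. It fell by 2.02 on the log2 scale (SE 0.14, adjusted p = 0.0012 in edgeR's quasi-likelihood test), in the direction that the labels give, although reads over the gene remained in the KO libraries. All 15 macrophage markers passed the count filter, with a summed level of 30198 to 31513 CPM (counts per 1000000 counts) in KO and 30067 to 32985 CPM in WT. All 24 stromal markers passed it too, although the BMSCs were kept in a separate chamber. Their sum was 2574 to 3381 CPM in KO and 3615 to 4544 CPM in WT. In edgeR, 9 of the 24 were lower in KO and 0 higher, beside 2.66% lower among all tested genes. The 9 became 0 without WT replicate 1, 1 without KO replicate 1 and 2 without KO replicate 3. The higher count became 1 without WT replicate 3. DESeq2 gave 12 lower and 2 higher. Thy1 (log2 fold change 1.31, SE 0.37) and Eng (0.47, SE 0.14) were uncalled in edgeR but higher in KO without overlap. Since these are bulk libraries, fewer cells of a type and less RNA per cell cannot be told apart.

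The IGF2BP proteins bind mRNAs, many of them marked with the m6A base modification, and affect their stability, location and translation. They were named for the mRNA of the growth factor IGF2. IGF2BP1 and IGF2BP3 are oncofetal proteins, abundant in the embryo, silenced in most adult tissues and often expressed again in tumors, whereas IGF2BP2 persists in adult tissues. HMGA1 and HMGA2 are small architectural proteins that bind AT-rich DNA and open chromatin in growing cells. LIN28B blocks the maturation of the let-7 microRNAs, which rise during development and repress several of these same mRNAs. In blood formation, the LIN28B, let-7 and HMGA2 or IGF2BP axis is known for separating fetal from adult hematopoiesis.

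The link between let-7 and the members is visible in sequence. A microRNA recognizes mRNAs mainly through its seed, bases 2 to 8, and 10 of the 11 distinct let-7 and miR-98 5′ arms in RefSeq (GRCm38.p6) shared the seed GAGGUAG. Of these, let-7a lies on chr13:48538239-48538260 (minus strand), let-7g on chr9:106178846-106178867 (plus strand) and let-7i on chr10:122985698-122985719 (minus strand). They are shown because they represent the family, with the seed in capitals.
let-7a-5p: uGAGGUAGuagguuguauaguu
let-7g-5p: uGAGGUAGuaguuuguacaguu
let-7i-5p: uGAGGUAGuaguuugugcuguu

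The 3′ UTR of every member held the DNA match to this seed, CTACCTC, searched on the transcript strand only in the GENCODE M21 annotation (GRCm38). Igf2bp3, Igf2bp2 and Hmga1 held 1 match each, and Igf2bp1, Hmga2 and Lin28b held 4 each. Of 20939 annotated 3′ UTRs, 8.86% held at least 1 match and 0.153% held 3 or more. Longer UTRs hold more matches by length alone, so each member was set beside UTRs within 20% of its own length. The share of those with at least 1 match was 13.1% for Igf2bp3, 11.8% for Igf2bp2 and 8.10% for Hmga1. Few UTRs of like length held as many as 4, with 0.354% for Igf2bp1, 0.136% for Hmga2 and 0.238% for Lin28b. A match is a description of sequence and does not show that let-7 acted on the mRNA in these cells.

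The first match of each member, counted from the stop codon, is shown so that the shared 7 bases can be compared, with the match in capitals. The windows are at chr6:49086787-49086809 for Igf2bp3, chr16:22059473-22059495 for Igf2bp2, chr11:95961778-95961800 for Igf2bp1, chr17:27563277-27563299 for Hmga1, chr10:120364224-120364246 for Hmga2 and chr10:45381022-45381044 for Lin28b. Hmga1 lies on the plus strand and the other members on the minus strand, and each window is written in the sense of the mRNA.
Igf2bp3 site: tgcatttttactcaaCTACCTCa
Igf2bp2 site: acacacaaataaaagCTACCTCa
Igf2bp1 first site: gctgtgcgaagtaaaCTACCTCa
Hmga1 site: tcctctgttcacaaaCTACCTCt
Hmga2 first site: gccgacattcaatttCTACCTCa
Lin28b first site: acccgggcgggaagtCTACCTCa

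**Figure D1:**
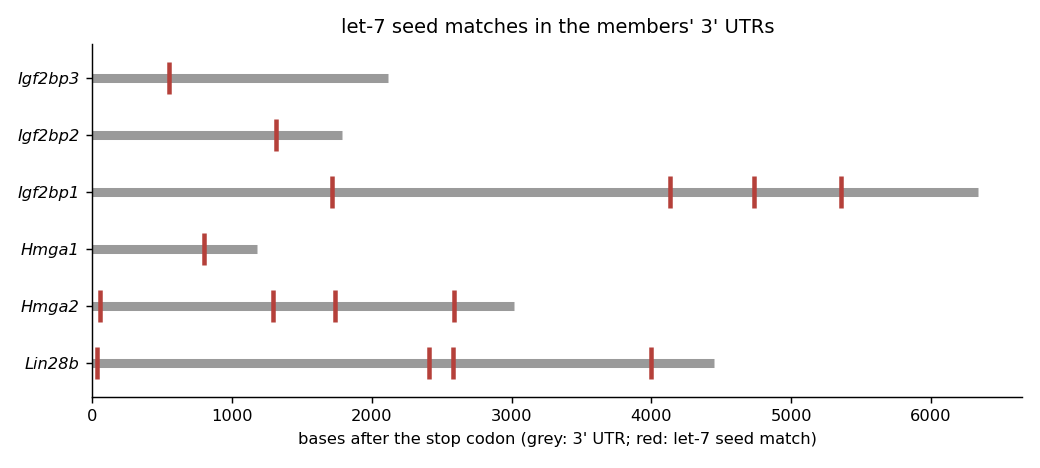
Position of let-7 seed matches (red) along the 3′ UTR (grey) of each member, in bases after the stop codon. Igf2bp3, Igf2bp2 and Hmga1 hold 1 match each, and Igf2bp1, Hmga2 and Lin28b hold 4 each.

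Igf2bp3 (ENSMUSG00000029814.10, chr6:49085223-49214957, minus strand) was counted 1098, 1372 and 1400 times in the KO libraries and 500, 628 and 422 times in the WT libraries. As CPM after TMM scaling, a normalization for library composition, the KO values were 30.6, 34.4 and 30.1 and the WT values 12.1, 13.2 and 10.2. The groups did not overlap, and the lowest KO library stood above the highest WT library. The mean was 31.7 ± 2.39 CPM in KO and 11.9 ± 1.53 CPM in WT (SD, n = 3 each), a ratio of 2.67. The log2 fold change was 1.42 with a standard error of 0.12 and a 95% interval of 1.14 to 1.70. It ranked 195th of 16402 tested genes by log2 fold change, and 105th of the 13610 genes with a mean of at least 1 CPM.

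Among all tested genes, 369 (2.25%) were higher and 436 (2.66%) lower in KO at an adjusted p under 0.05 in edgeR's quasi-likelihood test, and 25.5% did not overlap between groups in either direction. With 1 library left out, the counts of called genes lay between 18 (without WT replicate 1) and 407 on the higher side and between 53 (without the same library) and 372 on the lower side. Igf2bp3 was the 1 member on the higher side, and nothing is read from this because it was chosen on the same contrast. Its log2 fold change was 1.32 to 1.50 with each of the 6 libraries left out in turn.

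Part of the Igf2bp3 transcript lies across another gene. Exons of Malsu1, which encodes a mitochondrial ribosome assembly factor and is read from the opposite strand, cover 18.7% of Igf2bp3 exon bases, and the strand setting of the counting is not given in the sources used here. Malsu1 gave 316, 300 and 411 counts in KO and 414, 385 and 331 in WT, so its groups overlapped. Its log2 fold change was -0.06 (SE 0.15). In each library Malsu1 had fewer counts than Igf2bp3.

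**Figure D2:**
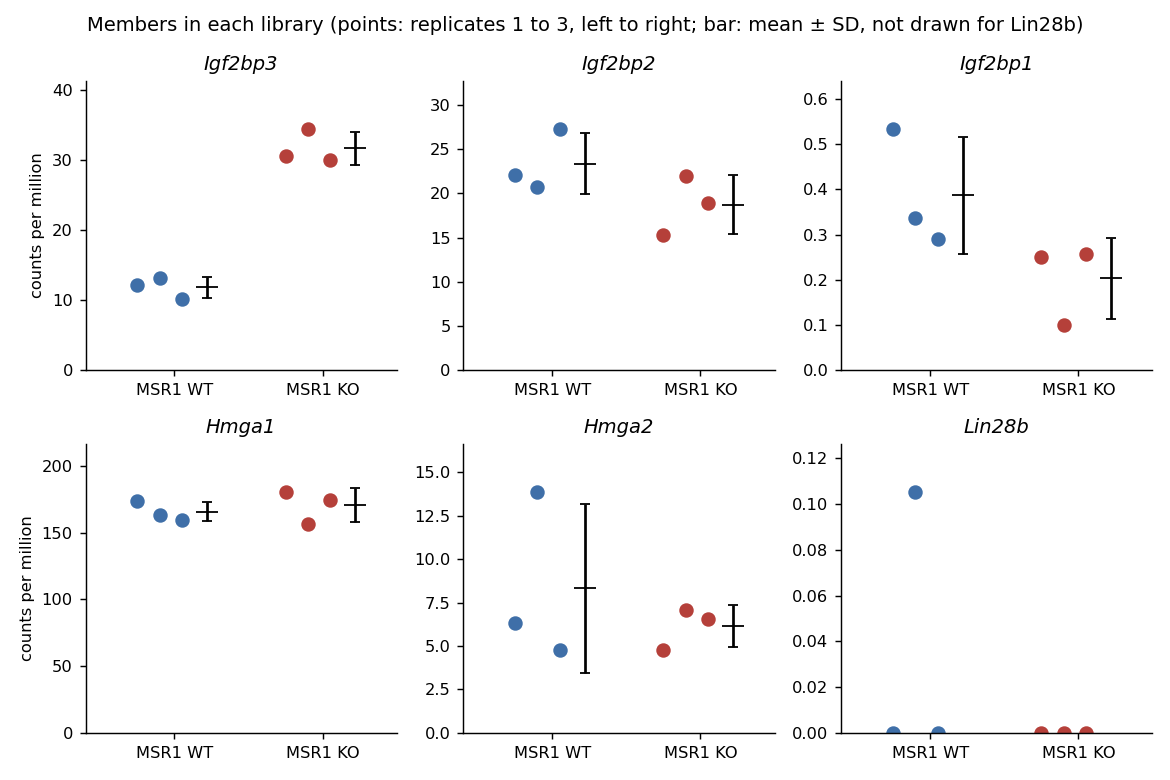
CPM of each member in each library, with points for replicates 1 to 3 and the mean ± SD beside them. Igf2bp3 separates the genotypes with KO libraries at 30.1 to 34.4 CPM and WT libraries at 10.2 to 13.2 CPM, while Igf2bp2, Hmga1 and Hmga2 overlap.

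Igf2bp2 (ENSMUSG00000033581.16, chr16:22059009-22163299) is the family member that adult tissues keep. Its CPM values were 15.3, 21.9 and 18.9 in KO and 22.0, 20.7 and 27.2 in WT, from 550 to 1126 counts a library. KO replicate 2 lay above WT replicate 2, so the groups overlapped. The mean was 18.7 ± 3.32 CPM in KO and 23.3 ± 3.45 CPM in WT, and the log2 fold change was -0.32 (SE 0.16, 95% interval -0.68 to 0.05). A fall of up to 0.68 and a small increase both lay within this interval.

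Igf2bp1 (ENSMUSG00000013415.9, chr11:95957163-96005940) was barely detected, with 9, 4 and 12 counts in KO and 22, 16 and 12 in WT. The KO values of 0.25, 0.10 and 0.26 CPM lay below the WT values of 0.53, 0.34 and 0.29 CPM. The separation was narrow, from 0.26 CPM in the highest KO library to 0.29 CPM in the lowest WT library. The log2 fold change of -0.92 had a standard error of 0.59 and a 95% interval of -2.27 to 0.44, and no difference was detectable at this depth.

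Set on 1 scale, the balance of Igf2bp3 and Igf2bp2 differed between the genotypes. This balance carries the Igf2bp3 difference, on which that gene was chosen. In CPM per kb of exon, the Igf2bp3 level was 3.74, 4.22 and 3.69 in KO and 1.49, 1.62 and 1.25 in WT. The Igf2bp2 level was 2.07, 2.96 and 2.56 in KO and 2.98, 2.80 and 3.68 in WT. Igf2bp2 was thus the more abundant in each of the 3 WT libraries and Igf2bp3 in each of the 3 KO libraries. Igf2bp1 did not exceed 0.055 in any library.

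As a share of the family's summed level per kb, Igf2bp3 took 64.1%, 58.7% and 58.8% in KO and 32.9%, 36.4% and 25.2% in WT. The mean shares were 60.5 ± 3.13% and 31.5 ± 5.71%, and those of Igf2bp2 were 39.1 ± 3.22% and 67.6 ± 5.87%. The summed level of the family was 6.44 ± 0.693 in KO and 4.65 ± 0.276 in WT, with no overlap between groups. The shares and this sum carry the Igf2bp3 difference and are not separate evidence of it.

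**Figure D3:**
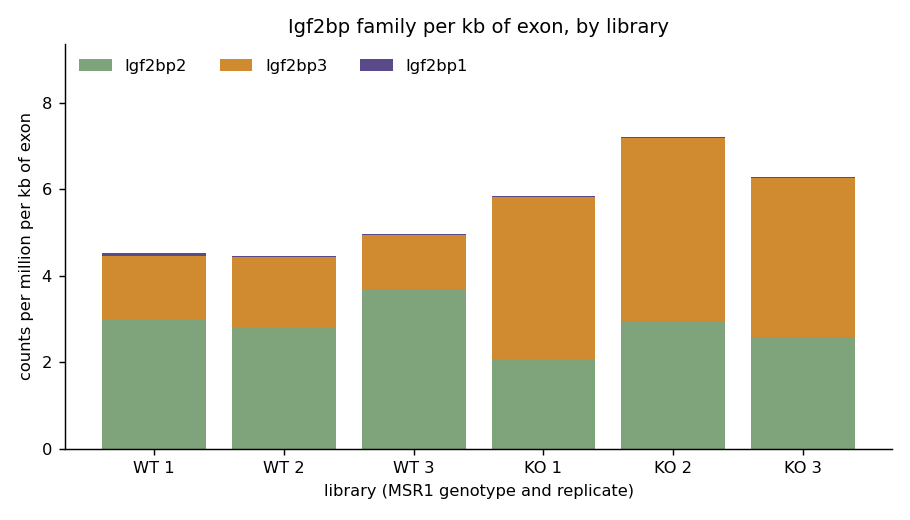
Level of the 3 Igf2bp genes in each library, as CPM per kb of exon and stacked from 0. Igf2bp2 is the larger part in the WT libraries and Igf2bp3 in the KO libraries, and Igf2bp1 is hardly visible.

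Hmga1 (ENSMUSG00000046711.15, chr17:27556620-27563674) was the most abundant member, at the 96.8th percentile of tested genes in level per kb. Its CPM values were 181, 156 and 175 in KO and 174, 164 and 160 in WT, and the groups overlapped. The log2 fold change was 0.04 (SE 0.08) with a 95% interval of -0.14 to 0.22, the narrowest of the members. The value is uncertain as far as near-identical sequence elsewhere in the genome could have shared its reads.

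Hmga2 (ENSMUSG00000056758.14, chr10:120361275-120476469), the fetal-type partner, gave 171, 282 and 305 counts in KO and 261, 658 and 196 in WT. As CPM these were 4.76, 7.08 and 6.56 in KO and 6.33, 13.9 and 4.74 in WT. WT replicate 2 stood far above the other 5 libraries, which spanned 4.74 to 7.08 CPM. The log2 fold change of -0.44 had a standard error of 0.37 and a 95% interval of -1.30 to 0.42. Without WT replicate 2 it turned to 0.15, so that its direction rested on that library. Hmga1 made up 98.9 ± 0.292% of the pair's level per kb in KO and 98.5 ± 0.908% in WT.

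Lin28b (ENSMUSG00000063804.8, chr10:45376620-45486395) had 0 counts in 5 of the 6 libraries and 5 counts in WT replicate 2, the library with the highest Hmga2. It did not pass the count filter and was not tested. A count of 0 allows up to 3 counts, which is 0.0633 to 0.083 CPM of the total counts of the KO libraries, counting error only. Its paralog Lin28a was counted 28, 30 and 22 times in KO and 48, 52 and 8 times in WT, at a log2 fold change of -0.30 (SE 0.63, adjusted p = 0.86 in edgeR's quasi-likelihood test). Averaged over the 6 libraries, the order of levels per kb was Hmga1, Igf2bp2, Igf2bp3, Hmga2, Igf2bp1 and Lin28b. Igf2bp2 at 2.84 and Igf2bp3 at 2.67 changed places with genotype. Igf2bp3 and Hmga2 overlapped among the WT libraries, where the Hmga2 level reached 2.05 CPM per kb, and Igf2bp1 and Lin28b overlapped at a few counts. Hmga1 stood apart from Igf2bp2, and Hmga2 from Igf2bp1, in every library.

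The let-7 pathway around the members was then examined. mRNA-seq does not measure mature microRNAs, and the 11 Mirlet7 hairpin rows held 37 counts in all. Of 19 other tested genes that process let-7 or act with LIN28, 0 passed an adjusted p under 0.05 in edgeR's quasi-likelihood test and 0 in DESeq2, with 3 at an unadjusted p under 0.05. Their median log2 fold change was -0.08, against -0.002 over all tested genes. Dicer1, which cuts the hairpin, had 94.4 ± 7.58 CPM in KO and 99.9 ± 6.91 CPM in WT. Msi1, an RNA-binding partner of LIN28, was the lowest at -1.13 (SE 0.44, adjusted p = 0.21 in the same test).

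Of 21 other let-7 target mRNAs tested, 1 rose and 0 fell in edgeR's quasi-likelihood test, beside 2.25% and 2.66% among all tested genes. The median log2 fold change was -0.03. DESeq2 gave 1 higher and 2 lower. The edgeR count of 1 became 0 without KO replicate 1, WT replicate 1 or WT replicate 2. Myc, the growth transcription factor, was at 10.6, 9.42 and 10.9 CPM in KO and 14.9, 13.5 and 14.3 in WT, without overlap, but did not pass edgeR's quasi-likelihood test (-0.46, SE 0.12, adjusted p = 0.068). Igf1r, the receptor for IGF1 and IGF2, was near it at -0.42 (SE 0.11, adjusted p = 0.062).

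Over the whole transcriptome, genes with seed matches were set beside those without. The median log2 fold change was -0.002 over 11811 tested genes with 0 matches, -0.02 over 1186 genes with 1 match and -0.05 over 170 genes with 2 or more. The quartiles of the last set were -0.29 and 0.12. UTR length moved with the number of matches, from a median of 1031 bases with 0 matches to 3636 bases with 2 or more, and its part in these medians was not tested.

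The machinery that IGF2BP proteins work with showed no called gene. Of 18 m6A writers, erasers and readers, 0 passed in edgeR's quasi-likelihood test, 0 in DESeq2 and 0 at an unadjusted p under 0.05. Among all tested genes, 2.25% were higher and 2.66% lower, so a count of 0 in so short a list does not stand out. The log2 fold changes of the 18 spanned -0.13 to 0.22, with a median of 0.01. Among them, Hnrnpa2b1, a nuclear reader, was at 378 ± 27.2 CPM in KO and 395 ± 4.67 CPM in WT. Of 12 mRNAs known to be bound by IGF2BP proteins, 0 passed in edgeR and 2 were lower in DESeq2, with 4 at an unadjusted p under 0.05. Igf2 itself had 58, 148 and 68 counts in KO and 298, 173 and 258 in WT. As CPM the groups overlapped by a narrow margin, 3.72 in KO replicate 2 against 3.64 in WT replicate 2, and the log2 fold change was -1.33 (SE 0.40, adjusted p = 0.11 in edgeR's quasi-likelihood test). Actb, whose mRNA the IGF2BP1 protein carries to the cell edge, was at -0.02 (SE 0.09).

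Imprinted growth genes, many of which are also most active before birth, had calls on the lower side. Of 17 tested, 0 were higher and 4 lower, beside 2.66% lower among all tested genes. The median log2 fold change was -0.41, with single genes from -1.33 to 1.21. The highest was Dlk1, at 8 to 42 counts a library (SE 0.55, adjusted p = 0.29 in edgeR's quasi-likelihood test). Peg10, a retrotransposon-derived placental gene, was at 3.23, 5.60 and 4.17 CPM in KO and 9.58, 10.6 and 7.45 CPM in WT (-1.08, SE 0.23, adjusted p = 0.039 in edgeR's quasi-likelihood test). Grb10, an adaptor that restrains insulin and IGF receptor signaling, was at 38.2, 46.0 and 29.8 CPM in KO and 63.5, 59.4 and 57.5 CPM in WT (-0.66, SE 0.15, adjusted p = 0.043). Cd81, a tetraspanin, fell by 0.65 (SE 0.12, adjusted p = 0.027). Igf2r, the receptor that clears IGF2, fell by 0.43 (SE 0.10, adjusted p = 0.048). The groups did not overlap for any of the 4.

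These 4 calls were not stable to leaving out a library. Peg10 kept its call in 2 of 6 such fits, Grb10 in 1, Cd81 in 1 and Igf2r in 0. Each of the 4 lost it without KO replicate 1, KO replicate 3, WT replicate 1 or WT replicate 2. The highest adjusted p was 0.137 for Peg10, 0.156 for Grb10, 0.107 for Cd81 and 0.158 for Igf2r, and the directions did not change, with log2 fold changes of -1.31 to -0.34 over the 4 genes. The stromal marker sum was also lower in KO, and its part in these values was not tested.

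Of the 8 other high mobility group genes tested, which bind and bend DNA or nucleosomes, 0 passed in edgeR and 1 was lower in DESeq2, with 1 at an unadjusted p under 0.05. Hmgn1, a nucleosome-binding member, was at 83.6 ± 3.29 CPM in KO and 102 ± 2.84 CPM in WT (-0.28, SE 0.07, adjusted p = 0.060 in edgeR's quasi-likelihood test). Of 22 proliferation genes, 0 were higher and 1 lower, with 15 at an unadjusted p under 0.05 and a median of -0.47. DESeq2 gave 11 lower, and edgeR gave 8 lower without WT replicate 3 and 0 without KO replicate 1, KO replicate 3, WT replicate 1 or WT replicate 2. The 1 was Pcna, the sliding clamp of DNA replication, at 128 ± 14.8 CPM in KO and 170 ± 5.35 CPM in WT (-0.41, SE 0.09, adjusted p = 0.045). It kept its call in 1 of 6 fits with a library left out, the one without KO replicate 2, and its adjusted p reached 0.149 in the others. The summed level of the 22 was 736 to 813 CPM in KO and 854 to 1260 CPM in WT, without overlap. Within each genotype the libraries stood in the same order by this sum as by Igf2bp3 CPM, with replicate 3 lowest and replicate 2 highest. KO replicates 1 and 3 were nearly tied, at 740 and 736 CPM in the sum and 30.6 and 30.1 CPM for Igf2bp3. Between genotypes the sum was lower in KO and Igf2bp3 higher. No link is read from orders of 3 libraries.

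**Figure D4:**
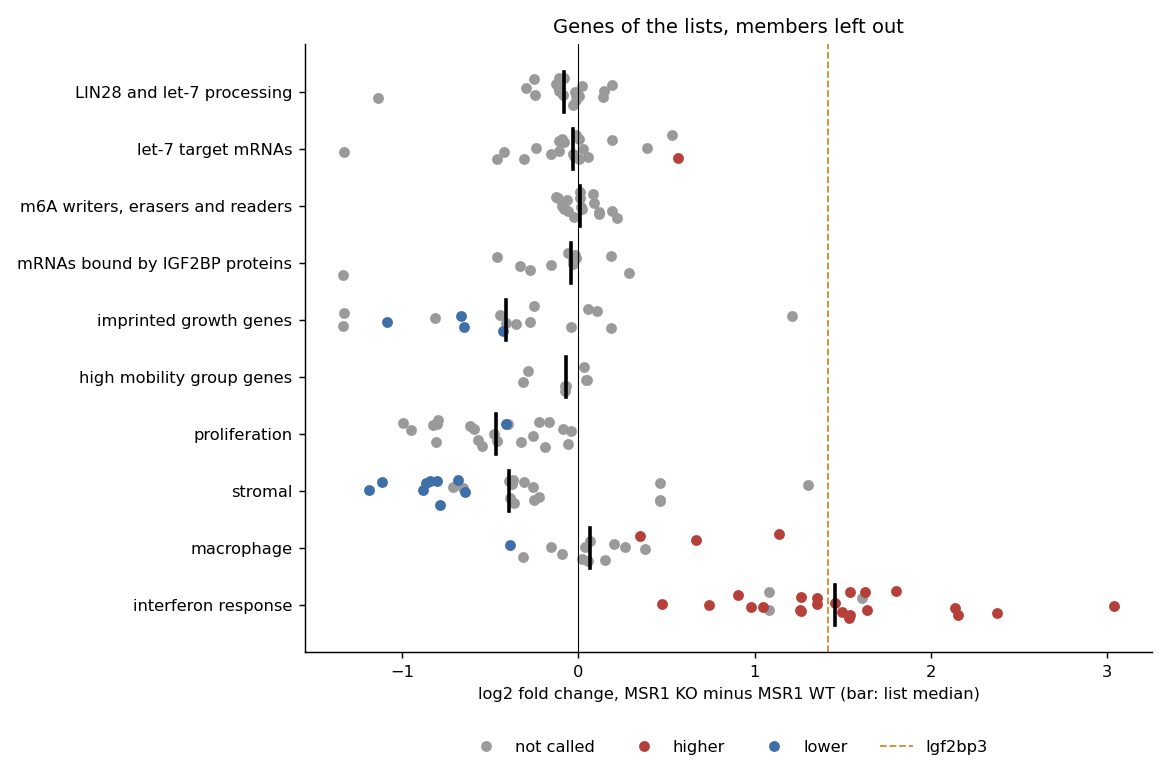
Log2 fold change (MSR1 KO minus MSR1 WT) of every tested gene in 10 lists, with the members left out, the list median as a bar and Igf2bp3 as a dashed line. Genes past an adjusted p under 0.05 are red (higher) or blue (lower), and the medians of the lists around let-7, m6A and IGF2BP lie near 0, with single genes as low as -1.33, while the interferon response genes lie above 0.

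Genes of other kinds also moved with genotype in these libraries. Of 25 interferon response genes, 22 were higher in KO and 0 lower, beside 2.25% among all tested genes, and their median log2 fold change was 1.46. The 22 became 1 without WT replicate 1, 2 without KO replicate 1, 6 without WT replicate 2, 8 without KO replicate 2 and 13 without KO replicate 3, with 0 lower in each. Their sum was 5280, 6304 and 4187 CPM in KO and 1776, 1471 and 2605 CPM in WT, and the groups did not overlap. Within a genotype, Igf2bp3 and this sum shared their highest library in KO, replicate 2, but not in WT, where Igf2bp3 was highest in replicate 2 and the sum in replicate 3. Of 9 tested hematopoietic progenitor markers, 1 rose. It was Kit, the stem cell factor receptor, with 699, 863 and 1012 counts in KO and 415, 328 and 566 in WT (log2 fold change 1.04, SE 0.22, adjusted p = 0.039 in edgeR's quasi-likelihood test), and it kept its call in 1 of 6 fits with a library left out, the one without WT replicate 3, with an adjusted p of up to 0.144 in the others. The summed level of the progenitor list was 35.3 to 38.3 CPM in KO and 21.8 to 30.7 CPM in WT. Kit alone carried this separation, and without it the sums overlapped, at 13.5 to 18.2 CPM in KO and 13.4 to 17.0 CPM in WT. The part of these lists in the Igf2bp3 difference was not tested.

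Of the remaining marker lists, macrophage genes had 3 higher and 1 lower of 15, beside 2.25% and 2.66% among all tested genes. Without WT replicate 1, 0 of either was called. Fcgr1, a high-affinity IgG receptor, was the largest of the called genes, at 563 ± 48.8 CPM in KO and 256 ± 68.9 CPM in WT. The lower gene was Mrc1 (-0.39, SE 0.08, adjusted p = 0.037 in edgeR's quasi-likelihood test). Mrc1 kept its call in 1 of 6 fits with a library left out. DESeq2 gave 5 higher and 1 lower in the macrophage list. Neutrophil markers had 0 of 12 called in edgeR (2 at an unadjusted p under 0.05, 1 higher in DESeq2), dendritic cell markers 0 of 8 (2 and 1), lymphoid markers 0 of 4 (0 and 0), and erythroid and megakaryocyte markers 0 of 5 (1 and 0).

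The genes beside each member were compared next, to see whether the difference at Igf2bp3 extended along its chromosome. On either side of Igf2bp3, 0 of the 3 nearest tested genes was called in edgeR's quasi-likelihood test. Malsu1 overlaps it, and Tra2a, a splicing regulator 29.0 kb to the right, had 77.7, 62.9 and 57.1 CPM in KO and 46.7, 57.6 and 56.2 CPM in WT. These values overlapped, and the log2 fold change of Tra2a was 0.30 (SE 0.13, adjusted p = 0.27). With 5 genes on each side, the 1 called was Npy, the neuropeptide Y gene 608 kb away, which fell by 1.06 (SE 0.17, adjusted p = 0.019). It lost this call without KO replicate 1, WT replicate 1 or WT replicate 2, with an adjusted p of up to 0.0656.

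Around all 6 members, the 3 nearest tested genes on each side held 1 called higher and 2 called lower. Among all tested genes, 2.25% were higher and 2.66% lower. Counts this small are not read as a feature of the members' surroundings. Msrb3, a methionine sulfoxide reductase and the next tested gene to the right of Hmga2 at 305 kb, fell by 0.70 (SE 0.10, adjusted p = 0.015 in edgeR's quasi-likelihood test), with 15.8 to 18.4 CPM in KO and 26.7 to 28.5 CPM in WT. It lost its call without KO replicate 1 or WT replicate 1, with an adjusted p of up to 0.0645. Etv5, an ETS transcription factor beyond Tra2b on the right of Igf2bp2, fell by 0.35 (SE 0.08, adjusted p = 0.040). Abi3, a regulator of the actin cytoskeleton on the left of Igf2bp1, rose by 0.45 (SE 0.09, adjusted p = 0.035). Etv5 lost its call with any 1 library left out (adjusted p up to 0.129), and Abi3 kept it in the fit without WT replicate 3 alone (up to 0.139).

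**Figure D5:**
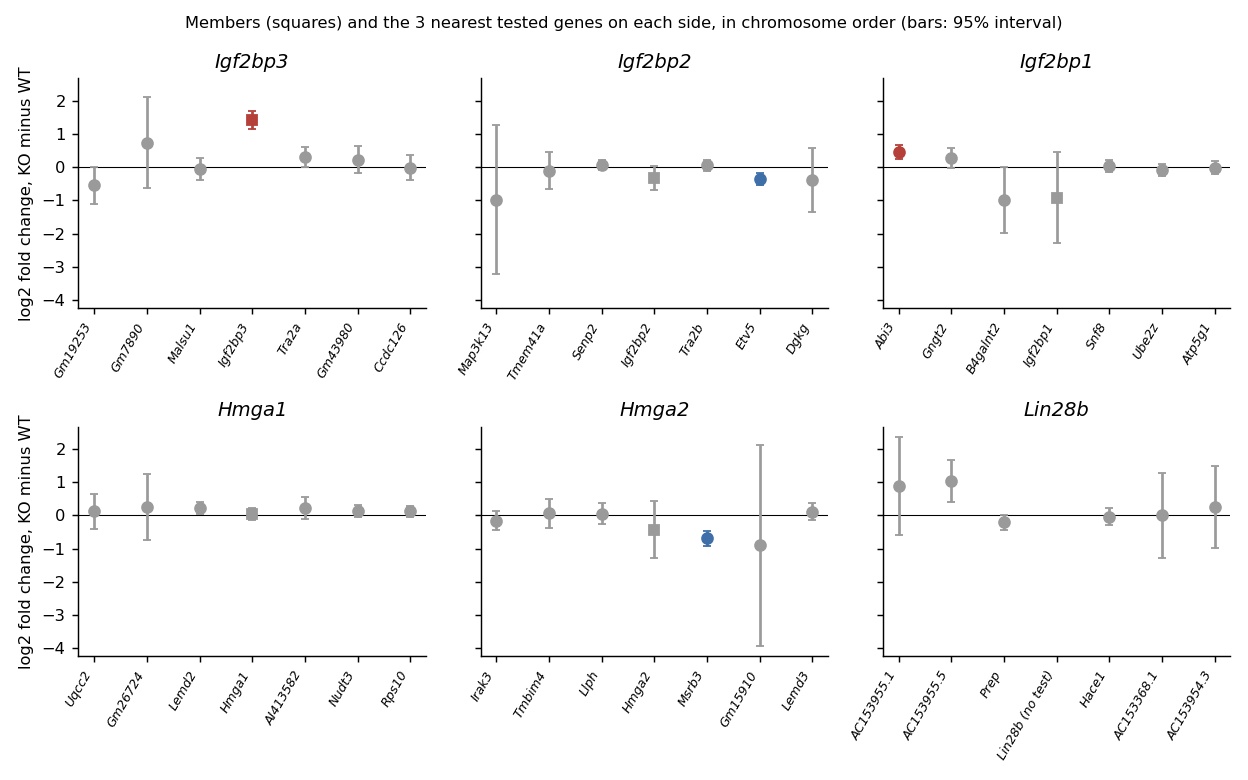
Log2 fold change with its 95% interval for each member (square) and the 3 nearest tested genes on each side (circles) in chromosome order. Red and blue mark genes past an adjusted p under 0.05, and Igf2bp3 stands at 1.42 among neighbours of which 0 was called.

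Finally, 13609 other genes with a mean of at least 1 CPM were ordered by how closely their log2 CPM followed that of Igf2bp3 over the 6 libraries. The 5 most alike were Sept6 (Pearson's r = 0.997), Gm6904 (0.994), Ss18 (0.993), Nfkbid (0.992) and Chmp1a (0.990). The libraries fall into 2 genotypes, which set most of such a correlation, and it is a description only. Sept6, a septin of the cytoskeleton, was at 37.8, 38.1 and 36.8 CPM in KO and 22.7, 24.8 and 21.5 CPM in WT (0.71, SE 0.09). Ss18, a subunit of the BAF chromatin remodeling complex, was at 85.6, 84.7 and 77.5 CPM in KO and 49.4, 49.2 and 45.1 CPM in WT (0.79, SE 0.08). Gm6904, a predicted gene, had 57 to 157 counts a library and a log2 fold change of 1.12 (SE 0.22). Nfkbid, an IκB family regulator of NF-κB, and Chmp1a, an ESCRT-III subunit, had smaller differences of 0.19 (SE 0.10) and 0.17 (SE 0.06), which did not pass the test.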

How the data were processed

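The authors deposited raw counts per gene and library and, beside them, signal values that equal these counts over a size factor of each library and were not used in the tests. The deposited table also holds the authors' log2 fold changes, p-values and adjusted p-values, which were not used. The submitters' processing notes name fastp 0.17.1, HISAT2 2.1.0, DESeq2 1.18.1 and R 3.4.3, whereas the study's methods name TopHat. The counter, the strand it used and the build are not given in the sources used here. Of 52550 gene identifiers, 52403 were found in GENCODE M21 (GRCm38), 49909 with the same start and end, so lengths and positions were taken on that build. Spreadsheet dates had replaced 27 symbols, of which 26 were restored, Sept6 among them.

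Counts were filtered with filterByExpr, scaled by TMM and tested with the quasi-likelihood test of edgeR 4.0.16 (R 4.3.3) over all 6 libraries without covariates, and p-values were adjusted over 16402 genes by the Benjamini-Hochberg method. The scripts were tested on simulated data. The alternatives were DESeq2 1.42.0, other scalings, other filters, a replicate block and leaving out each library. Library totals of 36143518 to 47417448 counts limit the members at a few counts, and limits cover counting error only. Replicates of a group differed by more than sampling noise. Deviations of same-numbered KO and WT libraries did not correlate (-0.026, 0.019 and -0.005), so the numbers were not taken as pairs. The members and all lists, the interferon list included, were chosen with earlier results of these data known. Named genes are the members, Msr1, up to 5 called genes with the largest change and the 2 most abundant per kb of each list, the nearest genes, called genes among the 3 nearest on each side, and the 5 genes most like Igf2bp3. Not every such gene is printed, and some values of single genes are not reported here. Lin28a, Dicer1, Msi1, Myc, Igf1r, Igf2, Hmgn1, Npy, Thy1, Eng and Dlk1 were named after their values were seen.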

Additional observations from a re-analysis of the deposited data

How the results depend on the processing

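The log2 fold change of Igf2bp3, which was chosen on this contrast, was 1.32 to 1.50 over the alternatives. Hmga2 turned from -0.44 to 0.15 without WT replicate 2 and ranged from -0.72 to 0.15 with 1 library left out, while Igf2bp1 (-1.13 to -0.60), Igf2bp2 (-0.44 to -0.18) and Hmga1 (0.0049 to 0.0999) kept their signs. Counts over all genes, 369 higher and 436 lower, became 720 and 848 with DESeq2, 237 and 288 without a filter, and 59 and 78 with the replicate block, and ranged from 18 to 407 and from 53 to 372 with 1 library left out. The genes called in the pathway, growth and interferon lists, 23 higher and 5 lower, ranged from 1 to 24 and from 0 to 10 with 1 library left out. The replicate block left 4 higher and 0 lower. For the lower side, DESeq2 gave 20, library size alone 8, no filter 1 and at least 10 counts in every library 9. The labels do not say whether same-numbered libraries are pairs, and the correlations of deviations do not exclude a batch acting on some genes. A call lost under the block is therefore not read as a weaker effect or as an unchanged one. With the longest transcript as length, the Igf2bp3 share of the family in KO was 65.9%, and the Hmga1 share of the pair was 98.1% in KO and 97.4% in WT. Uncalled genes near 0 changed sign with 1 library left out, namely Hnrnpa1 (-0.054 to 0.0075), Actb (-0.101 to 0.0759), Gnas (-0.0759 to 0.0064), Ngp (-0.0043 to 0.57), Meis1 (-0.22 to 0.12), Batf3 (-0.46 to 0.0404), Pf4 (-0.15 to 0.34), Malsu1 (-0.11 to 0.0572), Llph (-0.11 to 0.15) and Hace1 (-0.11 to 0.0064). Of 67 named genes that are not members, 29 lost a call under some alternative, and many of the 67 had no call to lose. Among those called, only Msr1 and Ss18 kept the call under every alternative. The causes of the lost calls were not tested, except that fewer libraries leave fewer residual degrees of freedom. Igf2bp1 at 4 to 22 counts, and Lin28b, are limited by depth. The filter of at least 10 counts in every library removed Igf2bp1.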
